A study of Homo sapiens with 7 samples.

Results

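Mitochondrial ribosomal proteins are the protein subunits of the mitoribosome, and 65 of their genes, out of 14232 genes that had a row of their own on the array, were compared between CSC and parental DU145 prostate carcinoma cells. The genes were taken by name, from rows of the deposited table that the platform annotation paired with exactly 1 symbol starting MRPL or MRPS and a digit, and each had 1 such row. Of the 65 genes, 43 encode proteins of the large subunit, MRPS30 among them, and 22 proteins of the small subunit. For 64 of the genes the systematic subunit name in RefSeq was available, and it placed all 64 in the same class. The other 12 of the 77 known subunit genes of this nomenclature had no row of 1 symbol and were not analysed here.

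The mitoribosome makes the few proteins that the mitochondrial genome encodes, all of them core subunits of the oxidative phosphorylation complexes, while its own proteins are encoded in the nucleus, made in the cytosol and imported. It descends from the bacterial ribosome, but many of its proteins have no bacterial counterpart and took shape in the mitochondrion. The ribosomal RNA, in contrast, comes from the mitochondrial genome, so that the particle is put together from products of both genomes.

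CSC were CD44+CD24- cells sorted from DU145, an established line derived from a metastatic prostate carcinoma, and by the study's methods they were grown as floating spheroids without serum, in medium with EGF, bFGF and insulin, several spheroids being pooled for each RNA sample. Parental cells were the unsorted DU145 line, cultured attached and with fetal bovine serum. The labels describe the sort and the serum culture of the line only, so the account of the spheroid culture rests on the methods. The 2 groups, with 4 CSC and 3 DU145 arrays (Human Exon 1.0 ST, 1 RNA sample each), thus differed in at least serum, growth factors, attachment and sorting together. Both come from 1 cell line. The study also reports that the spheroids grew slowly and held some damaged differentiated cells close to necrosis. What each of these adds to the differences cannot be told apart here. Whether the RNA samples within a group came from different cultures is stated nowhere in the sources used here, and the p-values cover the spread among the RNA samples alone, which may be technical. In bulk RNA, fewer cells with a transcript and less of it per cell cannot be told apart.

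Values are log2 signals, 1 per array and row, and differences are log2 fold changes, CSC minus DU145, so that a difference of 1.0 is a doubling. A row was called when limma's adjusted p was at most 0.05 over all 22011 rows and the log2 fold change was at least 1.0 in size, which 286 rows (1.30%) passed. The median value of an array lay between 5.89 and 5.91 in CSC and between 5.77 and 5.89 in DU145 cells. The median log2 fold change over all genes was 0.10. Of the sort markers, CD44 differed by -1.18 on the log2 scale (adjusted p = 0.128 by limma) and CD24 by -0.40 (adjusted p = 0.449), and neither passed the test, although every CSC array lay below every DU145 array for CD44, the antigen the sort kept. Among other markers of the line, the keratins KRT8 and KRT18 had log2 fold changes of 0.60 and 0.02, the prostate gene KLK3 one of -0.04 and the mesenchymal filament gene VIM one of -0.59 (adjusted p = 0.157), and none passed the test, although every CSC array lay below every DU145 array for VIM. Of 10 markers of leukocytes, endothelium, fibroblasts and glia, 9 were measured and 0 were called (limma), although 2 reached an unadjusted p of 0.05, and their median log2 fold change was 0.16. Of the 65 mitoribosomal genes, 60 were brighter than the median row of the array.

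Transcripts for most mitoribosomal proteins had a higher mean in CSC than in DU145 cells, but nearly always by a small amount. The mean was higher in CSC for 57 of 65 genes (87.7%), against 72.5% of all genes. The median log2 fold change was 0.25, with quartiles of 0.11 and 0.43 and a range from -0.36 for MRPS25 to 1.15 for MRPL10. A single gene, MRPL10, was called, where 143 of all genes (1.0%) were called higher and 203 (1.43%) were called in either direction. At any fold, 1 of 65 genes passed the adjusted p, where 303 of all genes (2.13%) did. At an unadjusted p of 0.05, 21 mitoribosomal genes (32.3%) were higher, against 14.9% of all genes, and 0 were lower, against 4.19%. This count was 13 (20%, against 10.4% of all genes) with the array medians set equal, 14 (21.5%, against 12%) after further quantile normalization, and 11 (16.9%, against 11.2%) without CSC array 2. The shares over all genes given here were not matched for brightness or for values shared by arrays. Such shared values were held by 27.7% of mitoribosomal genes and 53.4% of all genes, and they can keep groups from lying fully apart. Every CSC array lay above every DU145 array for 14 genes (21.5%), where 12.7% of all genes showed this. For 0 genes did every CSC array lie below, where 3.77% of all genes did. With the array medians set equal the first count was 9 (13.8%, against 9.21%), and after further quantile normalization it was 10 (15.4%, against 16.8%), near the share over all genes. For 52 of the 65 genes the 95% interval of the log2 fold change lay within 1.0 of no change in both directions.

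**Figure D1:**
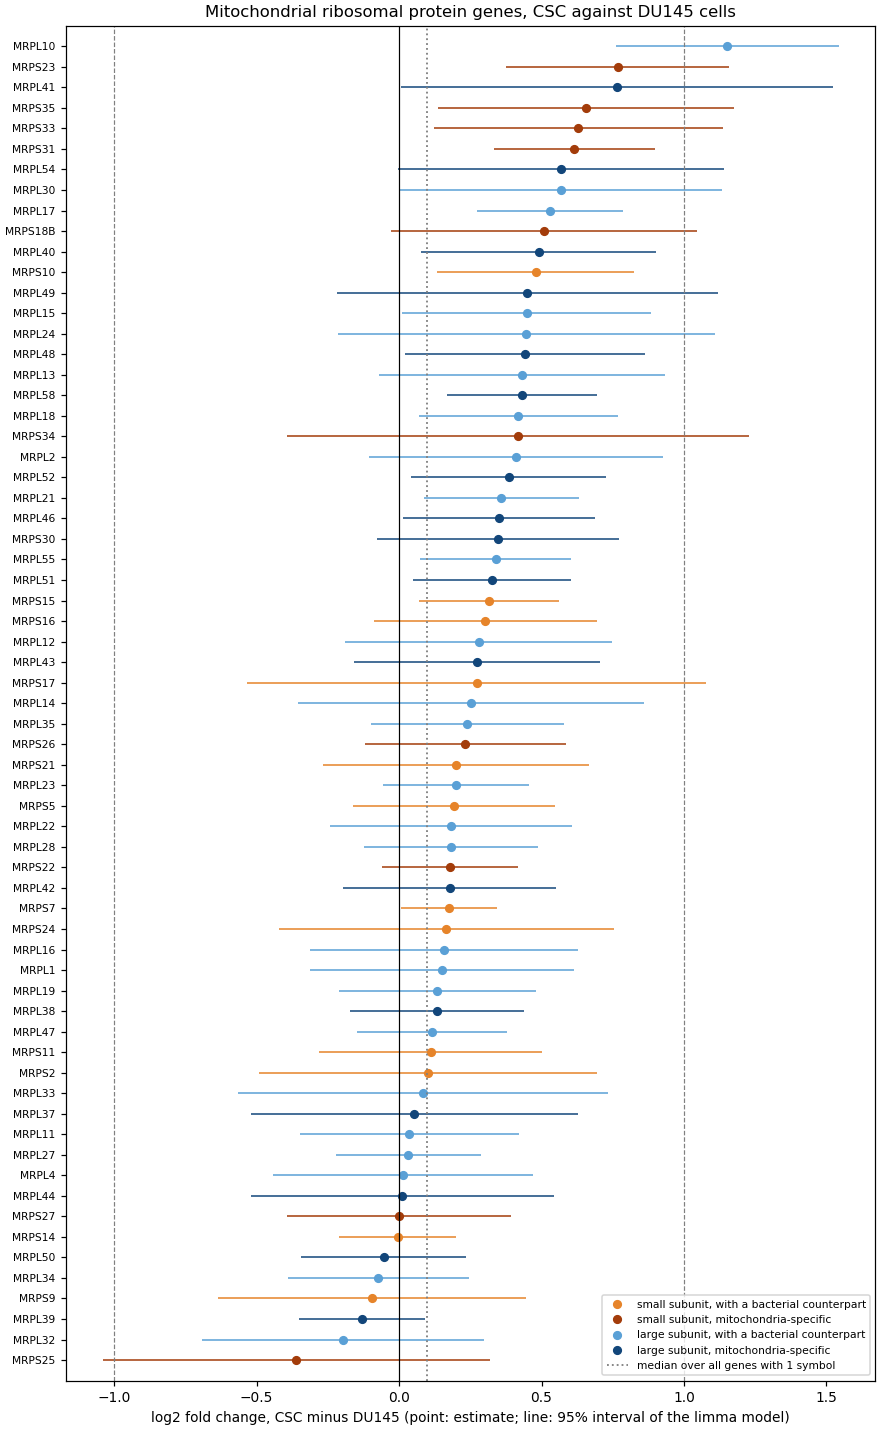
Log2 fold change, CSC minus DU145, of each of the 65 mitochondrial ribosomal protein genes (horizontal axis), ordered from the highest at the top, with the 95% interval of the limma model as a line, coloured by subunit and by the presence of a bacterial counterpart. MRPL10 stands at the top with 1.15 and MRPS25 at the bottom with -0.36, and most estimates lie to the right of 0.10, the median over all genes, drawn dotted.

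Part of this shift moved with 1 array. DU145 array 1 held the lowest of the 7 values for 39 of 65 mitoribosomal genes (60.0%), against 25.9% of all genes. Measured from each gene's mean over the 7 arrays, the median of the mitoribosomal genes was 0.02, 0.17, 0.18 and 0.06 on CSC arrays 1 to 4, and -0.34, -0.08 and 0.01 on DU145 arrays 1 to 3. DU145 arrays 2 and 3 thus lay close to CSC arrays 1 and 4. Over all genes the same medians ran from 0.02 to 0.03 in CSC and from -0.06 to -0.01 in DU145 cells. Without DU145 array 1 the median log2 fold change of the mitoribosomal genes was 0.16, against 0.08 over all genes, and 46 of 65 (70.8%) had a higher mean in CSC, against 68.3%. In that comparison 8 genes (12.3%) were higher at an unadjusted p of 0.05, against 9.72% of all genes. All 4 CSC arrays lay above DU145 arrays 2 and 3 for 14 genes (21.5%), against 17.3% of all genes. With the medians of the 7 arrays set equal, 52 of 65 genes (80.0%) had a higher mean in CSC, against 55.1%, and the median was 0.18, against 0.02. Why DU145 array 1 was low for these genes was not tested.

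**Figure D2:**
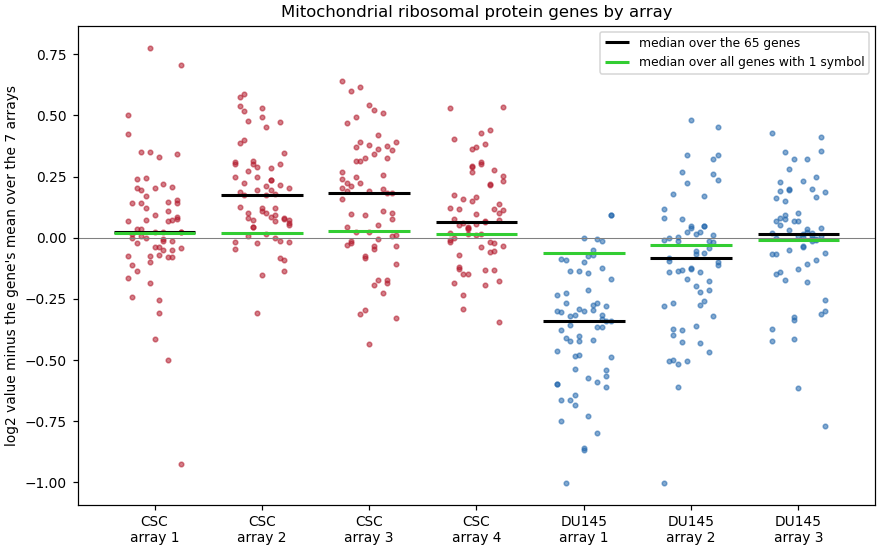
Log2 value of each of the 65 genes minus that gene's mean over the 7 arrays (vertical axis), 1 point per gene, for the 4 CSC and 3 DU145 arrays. The black bars are medians over the 65 genes and the green bars medians over all genes with 1 symbol, and the black bar of DU145 array 1 lies at -0.34, below the other 6.

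MRPL10 encodes the protein at the base of the stalk of the large subunit, the flexible arm that recruits translation factors. Its log2 values were 8.58, 8.38, 8.72 and 8.61 on the CSC arrays and 7.48, 7.08 and 7.71 on the DU145 arrays. All CSC values lay above all DU145 values, and DU145 array 1 was not the lowest of its group. The mean was 8.57 ± 0.14 in CSC (SD, n = 4) and 7.42 ± 0.32 in DU145 cells (SD, n = 3), a log2 fold change of 1.15 ± 0.16 (SE) or 2.22-fold, with a 95% interval from 0.76 to 1.54 and an adjusted p of 0.0289 by limma. The exact two-sided permutation test over the 35 ways to divide the arrays gave p = 0.0286, the smallest it can give, which 14 mitoribosomal genes reached. The size of the difference lay between 0.98 and 1.29 when each array was left out in turn. The call was kept in 1 of those 7 comparisons, the one without DU145 array 3 (adjusted p = 0.0444), and the adjusted p lay between 0.0591 and 0.0985 in the others.

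MRPL10 anchors the copies of MRPL12, the mitochondrial form of the bacterial stalk protein, next to MRPL11. MRPL12 had log2 values of 7.98, 7.73, 7.95 and 7.34 in CSC and 7.21, 7.50 and 7.71 in DU145 cells. These overlapped, with a log2 fold change of 0.28 ± 0.19 (SE) and an adjusted p of 0.454 by limma. MRPL11 had 6.55, 7.05, 6.63 and 6.48 in CSC and 6.58, 6.52 and 6.83 in DU145 cells, a difference of 0.04 ± 0.16 (SE, adjusted p = 0.920). The 3 proteins of the stalk thus had fitted differences of 1.15, 0.28 and 0.04, and the upper ends of the 95% intervals of MRPL12 and MRPL11 were 0.75 and 0.42. Whether they differ from each other in their response was not tested.

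In the small subunit, 18 of 22 genes had a higher mean in CSC, with a median log2 fold change of 0.22 (0.11 without DU145 array 1). Of these 22, 0 were called (limma), although 7 (31.8%, against 14.9% of all genes) were higher at an unadjusted p of 0.05. The groups did not overlap for 8 of the 22 (36.4%, against 12.7% of all genes). The highest differences belonged to 4 proteins that bacterial ribosomes lack, MRPS23, MRPS35, MRPS33 and MRPS31.

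MRPS23, 1 of the proteins that the mitochondrial small subunit gained, had log2 values of 9.28, 9.71, 9.32 and 9.54 in CSC and 8.47, 8.63 and 8.98 in DU145 cells. The groups did not overlap, and the log2 fold change was 0.77 ± 0.16 (SE), or 1.70-fold, with an adjusted p of 0.0715 by limma. MRPS31 had 7.50, 7.40, 7.25 and 7.51 in CSC and 7.02, 6.65 and 6.74 in DU145 cells, where DU145 array 1 was the highest of its group. Its log2 fold change was 0.61 ± 0.12 (SE, adjusted p = 0.0576), and 0.72 without that array. MRPS35 and MRPS33 were lower on DU145 arrays 1 and 2 than on array 3. MRPS35 had 8.58, 8.66, 8.88 and 8.54 in CSC and 7.72, 7.78 and 8.54 in DU145 cells (log2 fold change 0.66, adjusted p = 0.177), so that CSC array 4 and DU145 array 3 were close to equal. MRPS33 had 8.04, 8.22, 8.53 and 7.96 in CSC and 7.23, 7.49 and 7.95 in DU145 cells (0.63, adjusted p = 0.184), and the same arrays were again close to equal.

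The other small-subunit genes without overlap were MRPS18B at 0.51, MRPS10 at 0.48, MRPS15 at 0.32 and MRPS7 at 0.18, all log2 fold changes of genes that did not pass the adjusted p. That of MRPS18B was 0.25 without DU145 array 1. MRPS18B is 1 of 3 human paralogs of bacterial S18, but it was counted here among the mitochondria-specific proteins. The other paralogs were not analysed here. MRPS7, a protein of the head of the subunit with a counterpart in bacteria, had a narrow spread, with 10.23, 10.17, 10.11 and 10.15 in CSC and 9.95, 10.09 and 9.92 in DU145 cells. At the other end stood MRPS25, with 5.99, 6.98, 6.93 and 7.15 in CSC and 7.01, 7.25 and 7.11 in DU145 cells. CSC array 1 was lower than the rest by close to 1.0, and the log2 fold change of -0.36 had a 95% interval from -1.04 to 0.32 and an adjusted p of 0.499 by limma. Without CSC array 1 the difference was -0.10. MRPS9, MRPS14 and MRPS27 also had a mean in CSC at or below that in DU145 cells, with log2 fold changes of -0.09, -0.0046 and -0.00018.

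In the large subunit, 39 of 43 genes had a higher mean in CSC, with a median log2 fold change of 0.27 (0.17 without DU145 array 1, where 32 were higher). MRPL10 was the 1 gene called, and 14 (32.6%, against 14.9% of all genes) were higher at an unadjusted p of 0.05. The groups did not overlap for 6 (14%, near the 12.7% of all genes). Next after MRPL10 came MRPL41, a mitochondria-specific protein, with 8.09, 8.43, 8.44 and 7.73 in CSC and 6.84, 7.34 and 8.03 in DU145 cells. These values overlapped, the log2 fold change was 0.77 ± 0.32 (SE, adjusted p = 0.251 by limma), and it was 0.48 without DU145 array 1. MRPL17, a protein beside the exit of the tunnel through which the new chain leaves, had 8.56, 8.54, 8.76 and 8.41 in CSC and 8.04, 7.91 and 8.16 in DU145 cells. The groups did not overlap, the spread within each was small, and the log2 fold change was 0.53 ± 0.11 (SE, adjusted p = 0.0640), the same to 2 decimals without DU145 array 1. MRPL54 and MRPL30 each differed by 0.57 on the log2 scale (adjusted p = 0.257 and 0.253), and that of MRPL54 was 0.30 without DU145 array 1. The 4 large-subunit genes with a lower mean in CSC were MRPL32 at -0.20, MRPL39 at -0.13, MRPL34 at -0.07 and MRPL50 at -0.05, and none passed the test.

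**Figure D3:**
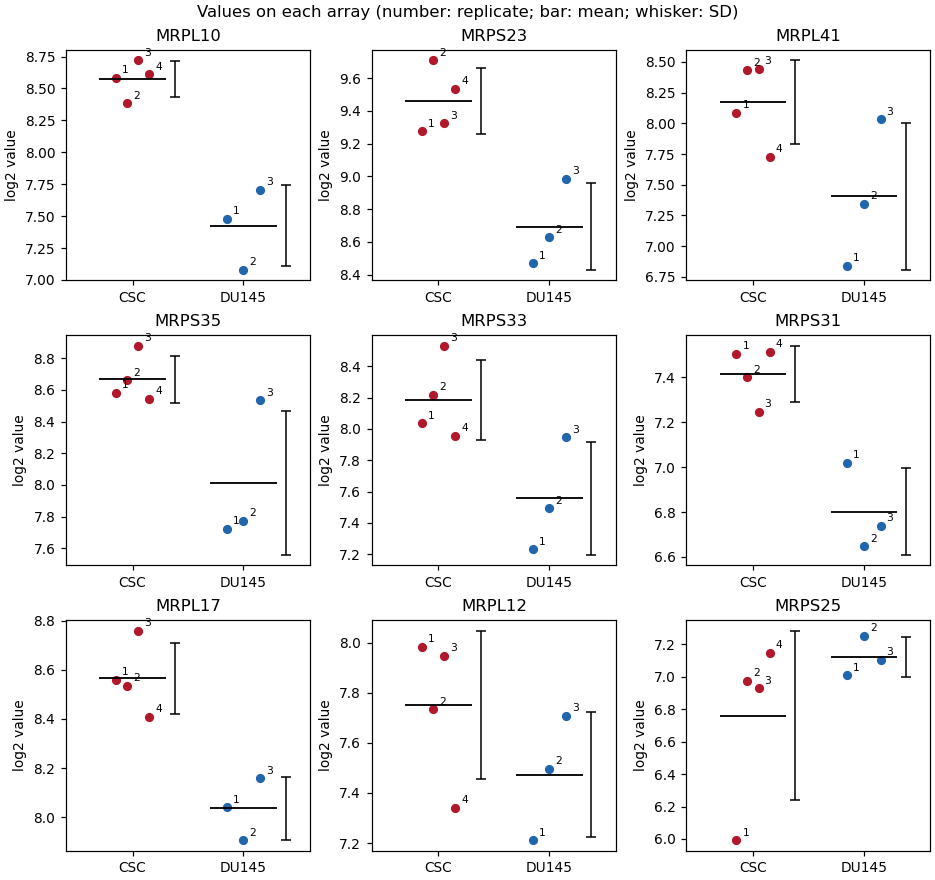
Log2 values on each array for MRPL10, the other genes with high differences, MRPL12 of the stalk and MRPS25, the gene with the lowest difference, with CSC on the left and DU145 on the right of each panel (numbered points, replicates; bars, means; whiskers, SD). The 2 groups do not overlap for MRPL10, MRPS23, MRPS35, MRPS33, MRPS31 and MRPL17, though those of MRPS35 and MRPS33 nearly touch. They overlap for MRPL41, MRPL12 and MRPS25, and each vertical axis has its own range.

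The central protuberance is a part of the large subunit that faces the small subunit and holds many mitochondria-specific proteins. All 8 of its listed genes had a higher mean in CSC, with log2 fold changes from 0.13 to 0.49 and a median of 0.40, and the median was 0.34 with all 8 still higher without DU145 array 1. A higher mean was held by 87.7% of the 65 mitoribosomal genes and by 72.5% of all genes. At an unadjusted p of 0.05, 7 of the 8 (87.5%) were higher, against 32.3% of the 65 and 14.9% of all genes, and 0 passed the adjusted p. Over the 65 genes that count fell from 21 to 8 without DU145 array 1, and it was not taken for this part. Whether this part differs from the rest was not tested. MRPL40 was highest at 0.49 and MRPL38 lowest at 0.13. MRPL58, a hydrolase that frees peptides from stalled mitoribosomes and also sits in this region, had 9.92, 10.06, 9.97 and 9.78 in CSC and 9.43, 9.37 and 9.70 in DU145 cells. Its groups did not overlap, with a log2 fold change of 0.43 ± 0.11 (SE, adjusted p = 0.106 by limma). MRPL18, MRPL46, MRPL48 and MRPL52 lay between 0.35 and 0.44.

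MRPL2, MRPL16 and MRPL27, which lie close to the site of peptide bond formation, had log2 fold changes of 0.41, 0.16 and 0.03, and without DU145 array 1 the median of these 3 was -0.0046. MRPL2 had 7.61, 7.29, 7.62 and 7.29 in CSC and 6.54, 7.29 and 7.29 in DU145 cells, so that 4 of the 7 arrays were alike and DU145 array 1 alone was lower. The 5 measured genes of the exit tunnel and the side that binds the inner membrane, MRPL17, MRPL22, MRPL23, MRPL24 and MRPL47, all had a higher mean in CSC, with a median of 0.20, and MRPL17 was the 1 among them at an unadjusted p of 0.05.

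Proteins with a counterpart in the bacterial ribosome (38 genes) had a median log2 fold change of 0.20. Those classed as specific to mitochondria (27 genes, MRPS18B among them) had one of 0.35. Without DU145 array 1 these medians were 0.13 and 0.26. At an unadjusted p of 0.05, 10 of the 38 and 11 of the 27 were higher. The difference between the 2 classes was not tested. Of 15 subunit genes in which inherited variants cause mitochondrial disease, 13 were measured, 9 of them (69.2%, against 72.5% of all genes) had a higher mean in CSC, and their median was 0.18. Without DU145 array 1 the median was 0.08 and 7 of 13 (53.8%, against 68.3%) were higher. They held both ends of the small subunit, MRPS23 at 0.77 and MRPS25 at -0.36.

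The genes do not form 1 cluster in the genome, though MRPL46 and MRPS11 lie head to head with overlapping windows, and the bases before the start site were read from RefSeq (GRCh38.p14) for 58 of the 65 genes, over 250 bases upstream of the farthest annotated start. Nuclear genes for mitochondrial proteins are known for binding sites of ETS factors, NRF1 and YY1 near their starts, so 3 motifs were searched on both strands, a choice made after the array values had been seen. The ETS core CGGAAG stood in 28 of 58 windows (48.3%), against 21.9% of the 11385 genes on the array with a window and 16.7% of 27305 RefSeq promoters. The NRF1 motif (GCGC, any base, TGCGC) stood in 5 (8.62%), against 8.10% and 5.53%, and the YY1 motif AAGATGGCG in 2 (3.45%), against 0.834% and 0.641%. The median log2 fold change was 0.35 over the 28 genes with the ETS core and 0.16 over the 30 without it, a description with no test, and base composition was not matched. Windows of 4 genes with high differences and of MRPS25, the lowest, are shown because they hold each kind of case, ETS core, NRF1 motif, both, or no match. Each gives the 200 bases before the start site, 5′ to 3′ on the strand of the gene, with the matched letters in capitals. CTTCCG is the ETS core read from the other strand. All 5 genes lie on the minus strand, and the regions are chr17:57850045-57850244 for MRPS23, chr7:141014953-141015152 for MRPS33, chr13:40771191-40771390 for MRPS31, chr11:6683341-6683540 for MRPL17 and chr3:15065316-15065515 for MRPS25.
MRPS23: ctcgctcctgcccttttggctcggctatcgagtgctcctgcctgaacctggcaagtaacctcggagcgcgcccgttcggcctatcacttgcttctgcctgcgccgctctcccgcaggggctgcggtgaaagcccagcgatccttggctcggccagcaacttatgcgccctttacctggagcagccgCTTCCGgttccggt
MRPS33: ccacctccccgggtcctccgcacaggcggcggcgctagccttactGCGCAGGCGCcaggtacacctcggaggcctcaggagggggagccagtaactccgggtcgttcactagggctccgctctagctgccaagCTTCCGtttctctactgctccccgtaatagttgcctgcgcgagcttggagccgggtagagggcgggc
MRPS31: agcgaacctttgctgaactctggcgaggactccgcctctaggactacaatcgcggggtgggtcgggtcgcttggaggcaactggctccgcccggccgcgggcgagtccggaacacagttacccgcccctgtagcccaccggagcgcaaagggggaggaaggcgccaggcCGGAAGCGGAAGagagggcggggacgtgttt
MRPL17: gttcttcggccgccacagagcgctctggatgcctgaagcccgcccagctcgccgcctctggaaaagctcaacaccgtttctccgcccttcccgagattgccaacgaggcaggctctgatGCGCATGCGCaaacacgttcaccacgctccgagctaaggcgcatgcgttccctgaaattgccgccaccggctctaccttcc
MRPS25: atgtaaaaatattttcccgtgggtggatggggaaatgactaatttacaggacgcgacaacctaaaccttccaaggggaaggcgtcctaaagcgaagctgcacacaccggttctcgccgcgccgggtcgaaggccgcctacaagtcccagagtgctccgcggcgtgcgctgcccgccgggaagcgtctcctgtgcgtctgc
In MRPS31 the core stood side by side with itself, starting 31 and 25 bases before the start site, and in MRPS23 it started 14 bases before it. The window of MRPS33 held an NRF1 motif 155 and an ETS core 67 bases before the start, and that of MRPL17 an NRF1 motif at 81 bases and no ETS core in the bases shown. None of the 3 motifs lay in those of MRPS25. These windows were picked and do not show how motifs went with the differences. Among genes not shown, MRPL41 (log2 fold change 0.765) and MRPS35 (0.656) held no motif in the same 200 bases. MRPL34 (-0.07) held ETS cores there and MRPS9 (-0.09) an NRF1 motif. NRF1 itself, the transcription factor, differed by -0.31 on the log2 scale (adjusted p = 0.221 by limma).

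The rest of the mitochondrial translation apparatus was read from lists. Of 65 measured genes on 5 lists (subunits under other names, assembly factors, translation factors, transcription and RNA processing, and regulators of mitochondrial biogenesis), 45 (69.2%) had a higher mean in CSC, with a median log2 fold change of 0.10, equal to that over all genes, and 1 was called. Without DU145 array 1 the median of these lists was 0.03, against 0.08 over all genes. How far these lists differ from the subunits was not tested. Of the subunits under other names, 3 of 6 were measured. GADD45GIP1 and CHCHD1 had log2 fold changes of 0.35 and 0.32, and DAP3, a GTP-binding protein of the small subunit, had 8.99, 8.96, 9.14 and 9.20 in CSC and 8.86, 9.37 and 9.37 in DU145 cells, a difference of -0.12. None of the 3 passed the test.

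Among assembly factors, 19 of 25 were measured, 13 had a higher mean in CSC, 0 were called (limma; 1 was lower at an unadjusted p of 0.05) and the median was 0.10. METTL17, an assembly factor of the small subunit, had 7.45, 7.21, 7.23 and 7.38 in CSC and 7.84, 8.05 and 7.73 in DU145 cells. Every CSC array lay below every DU145 array, with a log2 fold change of -0.56 and an adjusted p of 0.0551. METTL15 had the lowest difference of the list, -0.69 (adjusted p = 0.531 by limma), with overlapping groups and values from 2.7 to 5.5. ERAL1, a GTPase that binds the RNA of the small subunit, differed by 0.45 on the log2 scale (adjusted p = 0.313), and by 0.21 without DU145 array 1. RBFA, which also acts on that RNA, differed by -0.38 (adjusted p = 0.265), and by between -0.50 and -0.18 with each array left out in turn.

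Of 17 translation factors, 15 were measured and 1 was called. MTRES1, an RNA-binding protein of mitochondrial gene expression, had 6.37, 6.39, 6.47 and 6.16 in CSC and 4.85, 5.26 and 4.60 in DU145 cells. It rose in CSC by a log2 fold change of 1.45 (2.72-fold, adjusted p = 0.0190 by limma), with no overlap of the groups. The call was lost without CSC array 2 (adjusted p = 0.0699), without CSC array 3 (0.0569) and without DU145 array 1 (0.0831), and likewise under the methods' t-test (0.0796) and with the replicate number as a block (log2 fold change 1.51, adjusted p = 0.123). TSFM, the exchange factor for the elongation factor of mitochondria, differed by 0.56 on the log2 scale (adjusted p = 0.170), TUFM, that elongation factor, one of 0.28 (adjusted p = 0.329), and OXA1L, which inserts new chains into the inner membrane, one of -0.37 (adjusted p = 0.244). Of 24 genes of mitochondrial transcription and RNA processing, 22 were measured, 0 were called (limma), and the median was 0.04. At an unadjusted p of 0.05, 5 (22.7%, against 14.9% of all genes) were higher. Those 5 were TRIT1 at 0.46, MTO1 at 0.40, TFB2M at 0.40, TRMT10C at 0.35 and SUPV3L1 at 0.29, with adjusted p from 0.142 to 0.250 by limma. The mean was higher in CSC for 14 of the 22 and lower for 8, with FASTKD3 lowest at -0.35. The mitochondrial RNA polymerase POLRMT had a log2 fold change of -0.19 and its partner TFAM one of 0.08. Of 9 regulators of mitochondrial biogenesis, 6 were measured and 0 were called (1 was higher and 1 lower at an unadjusted p of 0.05), with ESRRA at 0.43, MYC at 0.33 and PPRC1 at 0.0031.

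The subunits of oxidative phosphorylation, the complexes that take up the products of the mitoribosome, and the proteins of the cytosolic ribosome were set beside the mitoribosomal genes. Of 56 genes of oxidative phosphorylation, 49 (87.5%) had a higher mean in CSC, and the median log2 fold change was 0.27. By limma 0 were called, although 1 passed the adjusted p at any fold. At an unadjusted p of 0.05, 15 (26.8%, against 14.9% of all genes) were higher. Without DU145 array 1 the median was 0.17 and 41 of 56 had a higher mean in CSC. Their medians by array were 0.08, 0.20, 0.19 and -0.04 in CSC and -0.31, -0.10 and 0.02 in DU145 cells. Of 26 cytosolic ribosomal protein genes with a row of their own, 16 (61.5%) had a higher mean in CSC, with a median of 0.17. By limma 0 were called, and 4 (15.4%, near the 14.9% of all genes) were higher at an unadjusted p of 0.05. Without DU145 array 1 their median was 0.02. These groups were chosen for comparison after the values had been seen, and the differences between groups were not tested.

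**Figure D4:**
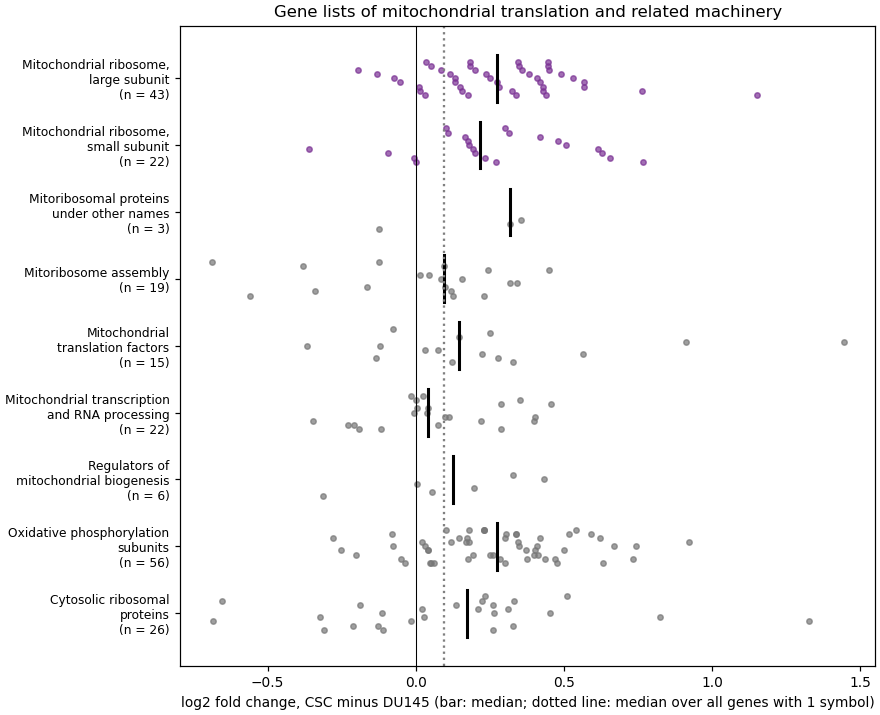
Log2 fold change, CSC minus DU145 (horizontal axis), of every measured gene on 9 lists, 1 point per gene, with the median of each list as a bar and the median over all genes as a dotted line. The medians of the large subunit (0.27), the small subunit (0.22) and oxidative phosphorylation (0.27) lie to the right of the dotted line at 0.10, and that of assembly factors lies on it.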

How the data were processed

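RNA of 4 CSC and 3 DU145 samples was measured on exon arrays, 1 array each. By the methods, the authors computed gene-level values with oneChannelGUI, by Robust Multichip Average and quantile-sketch normalization, and deposited log2 values for 22011 rows (transcript clusters). The genome build is not given in the sources used here. The platform annotation pairs 14432 rows with 1 symbol, 2408 with several and 5171 with none. No gene was named from a row with several, 19 of which carry a mitoribosomal symbol. Array files give no depth, and precision is limited by how many arrays there are. The methods give 3 replicates per condition, without saying which CSC arrays were used, so all 4 were kept.

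All 7 arrays entered limma 3.58.1 (R 4.3.3), with no term but condition and with Benjamini-Hochberg adjustment over all rows. Calls needed an adjusted p of at most 0.05 and a log2 fold change of at least 1.0 in size. The fit was tested on simulated data. No set test was run.

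The genes, lists, tests and rule for named genes were chosen with earlier results of these data known. Named were called genes, the 8 largest differences in each direction, genes of the role lists, and MRPL10, which the study lists from these same arrays, so that its call is no independent evidence. Promoter motifs and the 2 comparison lists of other machinery were added after the values were seen. The main fit did not use the replicate numbers shared by the groups to pair the arrays. Alternatives covered scaling, moderation, array weights, an unpaired t-test, the rows fitted, thresholds, a replicate block and each array left out in turn. The t-test is named in the study's general statistics, while for the arrays its methods name a linear model with an empirical Bayes method. Exon-level values were not analysed here.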

Additional observations from a re-analysis of the deposited data

Results flagged for a closer look

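For 4 of the 65 genes, 1 CSC array stood apart from the other 3, the gap to its nearest neighbour taking up more of the range of the group than Dixon's 95% limit for 4 samples, where chance alone gives about 1 in 20 groups. MRPS5, a protein of the small subunit, had 8.70 on CSC arrays 1 to 3 and 8.72 on array 4, so its ratio of gap to range of 1.0 was forced by 3 identical deposited values, to which the limit does not apply, and that array was not far from the rest. At least 1 value shared by arrays was held by 18 of the 65 genes (27.7%), against 53.4% of all genes. MRPS30 (ratio 0.964) and MRPS11 (0.931) were high on CSC array 3, with 9.13 and 8.33, and MRPL39 (0.937) was low on that array, with 8.86. MRPL39 also held a shared value, 9.02 on CSC arrays 1 and 2 and DU145 arrays 1 and 2, so the limit does not strictly apply to it. For none of these genes did the fitted difference pass the adjusted p.

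Among the 19 rows that carry a mitoribosomal symbol beside another gene's, which entered no count above, 1 passed the adjusted p. It had log2 values of 7.15, 7.29, 7.06 and 7.10 in CSC and 6.38, 6.46 and 6.63 in DU145 cells, a log2 fold change of 0.66 ± 0.09 (SE, adjusted p = 0.0279 by limma), and which of its genes gave the signal cannot be told. Of the 19 rows, 18 had a higher mean in CSC, with a median log2 fold change of 0.24.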

How the results depend on the processing

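The median stayed above 0 (0.16 to 0.34) and most genes kept a higher mean in CSC (46 to 59 genes) under every alternative run. At the lowest, 70.8% without DU145 array 1, that share was near the 68.3% of all genes. Calls were less stable. MRPL10 was the 1 gene called in the main fit. Under the unpaired t-test, under the replicate block (MRPL10 1.14, adjusted p = 0.104 by limma) and in 6 of 7 comparisons with 1 array left out, 0 were called (0 to 1 called over the 7). The number past the adjusted p, 1 in the main fit, was 2 after further quantile normalization, 5 with array weights and 0 with the t-test. It was 2 with rows of 1 symbol, 4 with bright rows, 4 at an adjusted p of 0.10, 0 under the block and 0 to 2 with 1 array left out. With array weights the genes added included MRPS23 (adjusted p = 0.0332), MRPS31 (0.0383), MRPL17 (0.0345) and MRPL58 (0.0479). Calls over all rows also rose, from 286 to 495 with array weights and to 430 after further quantile normalization. The share of all genes past the adjusted p was not taken under these settings. Mitoribosomal genes without overlap in either direction, 14 with the deposited values, numbered 10 with the array medians set equal and 10 after further quantile normalization. With the medians set equal, 9 were higher in CSC (13.8%, against 9.21% of all genes) and 1 lower, where 9.20% of all genes were lower. After quantile normalization all 10 were higher (15.4%, against 16.8% of all genes), and 8.42% of all genes were lower. Leaving out an array can only keep or add genes without overlap, and the count ran from 15 to 27. Without DU145 array 1, 14 of the 15 were higher in CSC (21.5%, against 17.3% of all genes) and 1 lower, where 7.06% of all genes were lower. Without DU145 array 3, all 27 were higher in CSC (41.5%, against 24.6% of all genes), and 4.78% of all genes were lower. The translation lists had 0 calls under the t-test and 0 to 1 with 1 array left out. The cause of these changes was not tested.

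Differences near 0 changed sign. MRPL34 was 0.0218 and MRPL50 0.0308 with array weights, and with 1 array left out MRPL34 ran from -0.166 to 0.0657, MRPL50 from -0.120 to 0.0466, MRPS9 from -0.255 to 0.0582, MRPS14 from -0.0554 to 0.0458 and MRPS27 from -0.145 to 0.112. Same-numbered arrays deviated from their group means with correlations of 0.07, -0.01 and 0.05 over all rows, and differently numbered arrays with -0.10 to 0.05. With so few pairs, these values cannot show whether the numbers pair the samples. The main fit did not pair them, and CSC array 4 has no partner. The block took the calls over all rows from 286 in the main fit to 0, and the t-test took them to 44. Setting the array medians equal gave 413 (192 higher and 221 lower, against 159 and 127 in the main fit). Further quantile normalization gave 430 (201 and 229), array weights 495, and leaving out 1 array 56 to 279.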
